A study of Mus musculus with 3 samples.

Results

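The genes described here are p53 targets, that is genes that the transcription factor p53 switches on when DNA is damaged or a cell is stressed. A list of 10 symbols, Trp53 and 9 of its direct targets, was matched to array probe sets annotated with exactly 1 gene symbol, and 8 of the 10 had such a probe set among 22087 genes in all. These 8 were Mdm2, Ccng1, Cdkn1a, Bbc3, Eda2r, Sesn2, Trp53inp1 and Zmat3. Trp53, which encodes p53 itself, and Bax, which encodes a pore-forming protein of apoptosis, were not analysed here, so no level of the factor is given. Each of the 8 had 1 probe set, and none had to be chosen over another.

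RNA came from 3 samples of mouse tumour stroma, all of the genotype Dicer1 +/-, in which 1 of the 2 alleles of the microRNA-processing enzyme Dicer is altered. The series title names the tumours by the abbreviation ASD, which the labels do not expand, and it sets +/- against +/+ stroma. The +/+ stroma was not analysed here, and with 1 group no effect of the genotype can be given. Tumours were digested with collagenase and dispase, and live cells negative for the endothelial surface protein PECAM1 and for the red reporter tdTomato, which marked the tumour cells, were sorted. The labels name neither the driver of the reporter nor the age of the animals, and nothing in them ties each sample to an animal of its own. The SDs below therefore measure only the spread between these samples, which may be technical.

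p53 is held at a low level in unstressed cells by MDM2, a ubiquitin ligase that marks it for destruction, and Mdm2 is itself a p53 target, which closes a feedback loop. Stress stabilises the p53 protein, mostly without more of its RNA, and p53 then binds paired decamers in its target genes. The targets stop the cell cycle, start apoptosis, dampen growth signalling or feed back on p53. Many of them also answer to other factors, so the RNA of a target is not a reading of p53 activity alone.

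The binding letters could be shown in the 300-base promoter windows of RefSeq (build GRCm38.p6, 250 bases before to 50 after a gene's start), which held 6 of the 8 genes. The windows of Zmat3 and Trp53inp1 were not used here. The p53 decamer reads the same on both strands by its consensus, and its core is CNNG. An element was taken as 2 adjacent decamers with both cores intact and at most 3 mismatches elsewhere, a limit set with these windows in view. Such an element lay in 3 of the 6 genes, Cdkn1a, Ccng1 and Bbc3, and in 1.63% of all 27025 genes with a window. Of 30 further direct p53 targets with a window, 5 (16.7%) held an element and 6 a decamer. The element had 1 mismatch in Cdkn1a and in Ccng1 and 3 in Bbc3. A single decamer without mismatch was found in 3 of the 6, Cdkn1a, Ccng1 and Mdm2, and in 9.55% of all genes. The decamer of Ccng1 and 1 of the 2 decamers of Cdkn1a are part of their elements, and the other Cdkn1a decamer lies upstream of its element and is left in lower case below. Neither was found in the windows of Sesn2 and Eda2r, which says no more than that these letters are not within those windows. The 4 stretches are shown because they are the letters through which p53 could contact the promoters of genes measured here, with the element, or for Mdm2 the decamer, in capitals. They lie at chr17:29090888-29090987 (plus strand) for Cdkn1a, chr11:40755422-40755521 (minus strand) for Ccng1, chr7:16309446-16309545 (plus strand) for Bbc3 and chr10:117710895-117710984 (minus strand) for Mdm2.
Cdkn1a: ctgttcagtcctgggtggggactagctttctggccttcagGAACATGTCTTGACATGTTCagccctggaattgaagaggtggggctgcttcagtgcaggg
Ccng1: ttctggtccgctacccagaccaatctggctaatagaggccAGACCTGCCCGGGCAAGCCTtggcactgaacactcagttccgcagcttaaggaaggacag
Bbc3: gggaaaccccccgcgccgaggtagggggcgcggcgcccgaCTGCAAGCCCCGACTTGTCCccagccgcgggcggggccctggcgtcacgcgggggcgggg
Mdm2: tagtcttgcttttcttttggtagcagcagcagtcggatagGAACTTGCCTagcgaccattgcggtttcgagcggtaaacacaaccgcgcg
The Cdkn1a element starts 51 bases before the more upstream of 2 annotated starts, and the window of the other start holds none. The Bbc3 element starts 97 bases before the first of 3 annotated starts, the Ccng1 element 195 bases and the Mdm2 decamer 186 bases before their only one. These matches are descriptions of sequence, and binding was not measured.

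The deposited values are log2 intensities, so a difference of 1 is a 2-fold difference, and the array medians were 5.34 to 5.36. A gene was called detected on an array when its value exceeded the 95th percentile of olfactory, vomeronasal and taste receptor probe sets, which stood at 5.16, 5.11 and 5.20 on the arrays of samples 1, 2 and 3. Sample 1 stood apart in sex-linked genes, with Xist at 9.78, 3.43 and 3.49 and the Y-linked Eif2s3y at 3.86, 8.51 and 8.71 in samples 1, 2 and 3. Dicer1 was at 8.10, 8.10 and 8.08. Each sample had a single array, so differences between samples carry no test, and neighbouring values in any order of the samples cannot be told apart by a spread of their own. Brightness differs between probes, so levels were compared between samples for 1 gene at a time. Only the detection level set a gene against other probe sets, and distances from it share this limit.

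Of the 8 genes, 7 were detected on every array, against 60.5% of the 20658 genes outside the receptor families. Eda2r was detected on 2 arrays. One gene, Sesn2, had a range over the samples above 1, against 5.70% of the 13636 genes detected on at least 1 array. A range above 0.5 was found for 3 of the 8, Sesn2, Eda2r and Trp53inp1, against 26.8% of those genes. The median SD of the 8 genes was 0.227, and that of all detected genes was 0.165. The genes did not share 1 order of the samples. Of the 8, 3 were highest in sample 3, 2 in sample 1 and 2 in sample 2, and Bbc3 had no highest sample. The shares of all detected genes highest in samples 3, 1 and 2 were 32.8%, 28.8% and 32.5%. Under quantile normalization or median centring 4 of the 8 were highest in sample 2, 2 in sample 1 and 2 in sample 3.

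**Figure D1:**
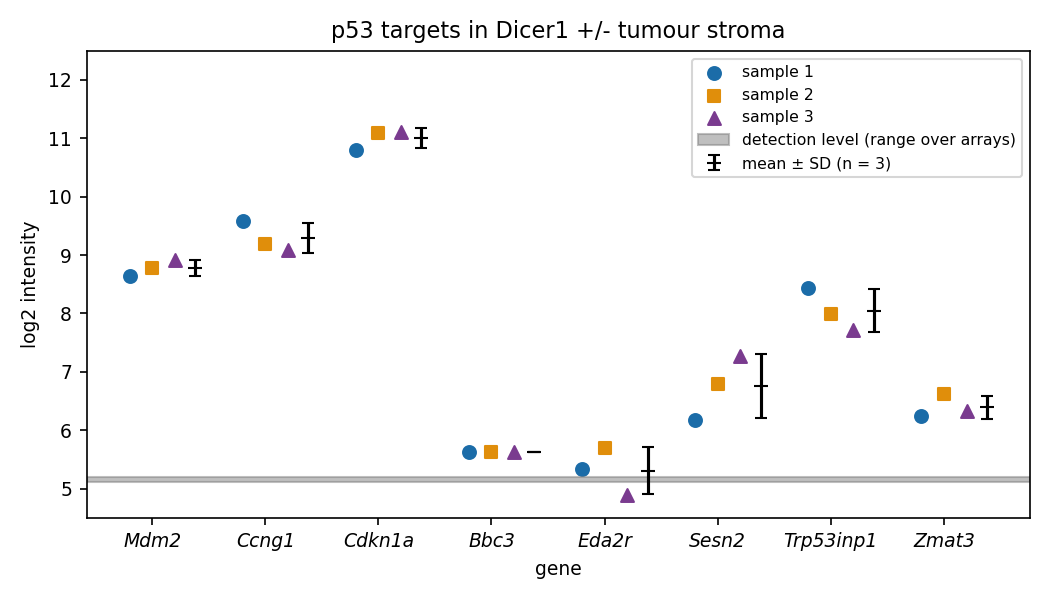
Log2 intensity (vertical axis) of the 8 p53 targets (horizontal axis) in samples 1, 2 and 3, with the mean ± SD (n = 3) beside each gene and the detection level of the arrays as a grey band. Cdkn1a lies near 11 in all samples, Bbc3 just above the band with 3 equal values, and Eda2r falls below it in sample 3.

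Mdm2 and Ccng1 are targets that feed back on p53. Mdm2 had 8.65, 8.78 and 8.92 in samples 1, 2 and 3, with a mean of 8.78 ± 0.14 (SD, n = 3). The range of 0.28 was at percentile 44.0 of all detected genes, so the gene of the feedback loop differed between the samples about as much as the middle of all genes. Ccng1 encodes cyclin G1, which brings a phosphatase to MDM2. It had 9.58, 9.19 and 9.10 in samples 1, 2 and 3, with a mean of 9.29 ± 0.26 (SD, n = 3). Sample 1 was the highest by 1.40-fold over sample 3, while samples 2 and 3 differed by 0.095. Mdm2 and Ccng1 thus had opposite orders of the samples.

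Cdkn1a encodes p21, an inhibitor of cyclin-dependent kinases and the main arm of p53-dependent cell cycle arrest. It had 10.80, 11.10 and 11.10 in samples 1, 2 and 3, with a mean of 11.00 ± 0.17 (SD, n = 3). Samples 2 and 3 differed by 0.0052 and sample 1 lay lowest, with a range of 0.30 at percentile 48.0 of all detected genes. On every array Cdkn1a exceeded the detection level, by 5.64 to 5.98.

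The apoptosis targets lay close to the detection level. Bbc3 encodes PUMA, a BH3-only protein that promotes the mitochondrial step of apoptosis. It had 5.62 in each of the 3 samples, equal in every deposited digit, as were 1.25% of detected genes. Equal values on all arrays give an SD of 0, which is not a measure of precision, and its distance above the detection level was 0.43 to 0.51. Eda2r encodes a receptor of the TNF receptor superfamily for the A2 form of ectodysplasin and lies on the X chromosome. It had 5.34, 5.70 and 4.89 in samples 1, 2 and 3, with a mean of 5.31 ± 0.40 (SD, n = 3). Sample 3 was below the detection level of its array by 0.30, so the range of 0.80 compares 2 dim values with one that was not detected. Xist-high sample 1 lay between samples 2 and 3 for this X-linked gene, and the part of sex in this order was not tested.

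Sesn2 encodes sestrin 2, a stress protein that restrains the growth kinase complex mTORC1. It had 6.18, 6.80 and 7.28 in samples 1, 2 and 3, with a mean of 6.75 ± 0.55 (SD, n = 3). Sample 3 was 2.14-fold above sample 1, a range of 1.10 at percentile 95.5 of all detected genes. Differences above 1 in either direction between samples 3 and 1 were found for 1 of the 8 genes and 2.75% of all detected genes. Between samples 2 and 1 none of the 8 passed, against 1.83% of all, and between samples 3 and 2 none passed, against 3.47%. Samples 1 and 3 set the Sesn2 range, so leaving out either could only narrow it, to 0.48 without sample 1 and 0.62 without sample 3. All 6 neutrophil lineage markers were detected, with median deviations from the gene mean of -0.33, -0.07 and 0.40, the order of Sesn2, although single markers differed in order and 5 of 6 were highest in sample 3. Sample 3 was also the highest in 6 of 6 dendritic cell markers, with -0.03, -0.51 and 0.60. The same held for 5 of 6 endothelial markers, with -0.33, -0.38 and 0.60. Beside these counts, 32.8% of all detected genes were highest in sample 3. Only 4 of the 6 endothelial markers were detected on every array. The others were detected in sample 3 alone, so the filter kept them through the sample where they were highest. The part of these cells in the Sesn2 difference was not tested.

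Trp53inp1 encodes a nuclear stress protein that promotes p53 activity and autophagy. It had 8.44, 7.998 and 7.71 in samples 1, 2 and 3, with a mean of 8.05 ± 0.37 (SD, n = 3). Sample 1 was 1.65-fold above sample 3, a range of 0.73 at percentile 87.1 of all detected genes, and 0.29 without sample 1. Trp53inp1 and Ccng1 were the members that were highest in sample 1. B cell and plasma cell markers were highest in that sample too, 5 of 5, with median deviations of 1.60, -0.86 and -0.39. Of these, 3 of 5 were detected on every array, and 1 in sample 1 alone. T cell markers, all detected, were highest there in 5 of 5, with 1.00, -1.17 and 0.17. Beside these counts, 28.8% of all detected genes were highest in sample 1. The part of B and T cells in the order of Trp53inp1 and Ccng1 was not tested. In sorted bulk samples, more cells of a type and more RNA per cell cannot be told apart.

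Zmat3 encodes a zinc finger protein that binds RNA and affects splicing. It had 6.24, 6.62 and 6.33 in samples 1, 2 and 3, with a mean of 6.39 ± 0.20 (SD, n = 3). Sample 2 was the highest by 0.38 over sample 1, a range at percentile 59.8. A further probe set shared between Zmat3 and the gene model 4930429B21Rik was outside the rule and was not above background on any array, at 4.75, 5.08 and 4.89. Zmat3 and Eda2r were the members highest in sample 2. All 6 fibroblast markers were detected and highest there, with median deviations of 0.05, 0.42 and -0.51. So were all 6 pericyte and smooth muscle markers, with -0.06, 0.68 and -0.66. Beside these counts, 32.5% of all detected genes were highest in sample 2. The part of these cell types was not tested.

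**Figure D2:**
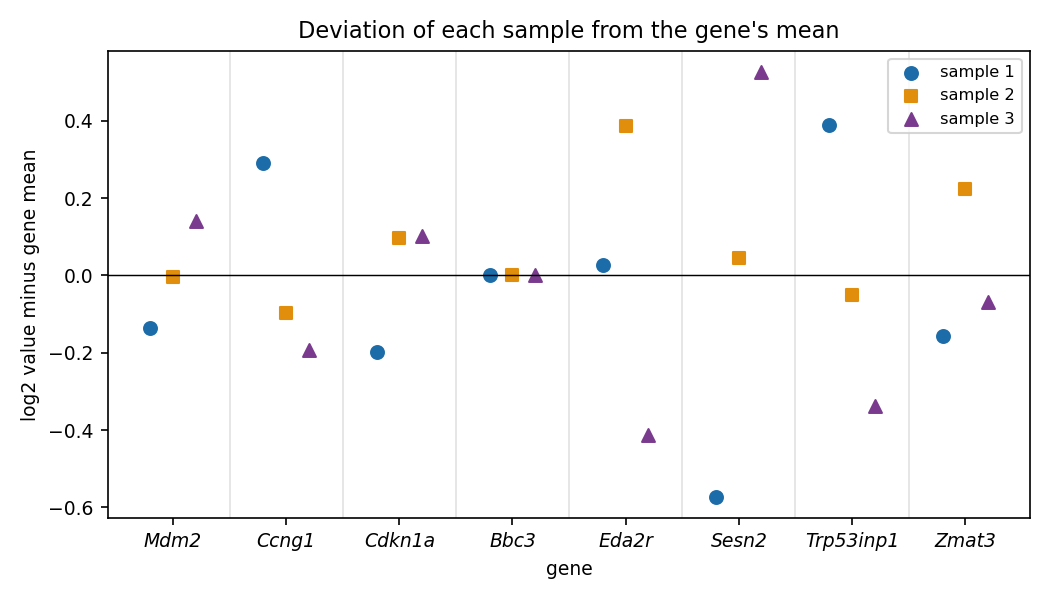
Log2 value of each sample minus the gene's mean over the 3 samples (vertical axis) for the 8 genes (horizontal axis). Sesn2 spans from -0.57 in sample 1 to 0.53 in sample 3, Trp53inp1 and Ccng1 run the opposite way, and no sample is on 1 side of 0 for all genes.

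Over the 8 genes the median deviation was -0.07 in sample 1, 0.02 in sample 2 and -0.03 in sample 3, against -0.0070, 0 and -0.00062 over all detected genes. Sample 2 minus sample 1 was positive for 5 genes, negative for 2 and 0 for Bbc3, with a median of 0.21 against 0.0043 over all detected genes. Sample 3 minus sample 1 was positive for 4 and negative for 3, and sample 3 minus sample 2 positive for 3 and negative for 4. The members differed among samples in several directions, with sample medians spanning 1.07-fold.

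**Figure D3:**
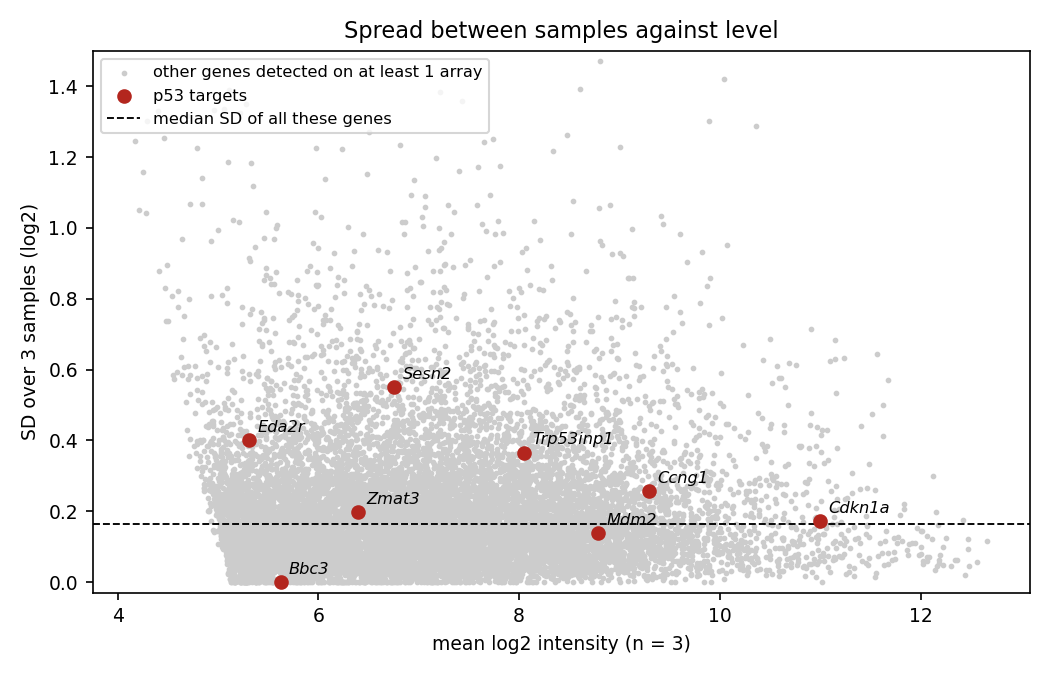
SD over the 3 samples (vertical axis, log2) against mean log2 intensity (horizontal axis) for genes detected on at least 1 array in grey and the 8 p53 targets in red; the dashed line is the median SD of all these genes, and 24 genes with an SD above 1.5 lie outside the axis. Sesn2 (0.55), Eda2r (0.40) and Trp53inp1 (0.37) stand above the line, Cdkn1a (0.17) and Mdm2 (0.14) close to it, and Bbc3 at 0.

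A list of 39 further direct p53 targets gave a wider view, of which 35 were measured, 33 were detected on every array and 34 on at least 1. Over the genes outside the receptor families these detected shares were 60.5% and 66%. Gdf15, Gadd45a, Ddb2 and Fdxr were not analysed here. Of the 34, 2 had a range above 1, beside 5.70% of all detected genes. These were Pltp, a phospholipid transfer protein, at 9.64, 9.94 and 8.87 in samples 1, 2 and 3, and Perp, a membrane protein of desmosomes and apoptosis named here after its values were seen, at 5.51, 6.17 and 4.75, the last below the detection level. The next largest ranges were those of the kinase Plk3 (0.89, highest in sample 3), the sulfatase Sulf2 (0.80, highest in sample 2) and the lipid hydrolase Abhd4 (0.68, highest in sample 2). The smallest belonged to Dcxr (0.049) and Psrc1, equal on all arrays like Bbc3. The top value came from sample 2 in 14 of the 34, beside 32.5% of all detected genes, and the bottom value from sample 3 in 17, beside 33.3%. Fibroblast and pericyte markers had the same samples at the top and bottom, except 1 pericyte marker that was lowest in sample 1, and their part was not tested. The median SD of 0.160 was close to the 0.165 of all detected genes.

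All 22 regulators and cofactors of p53 on the list were detected on every array, beside 60.5% of the genes outside the receptor families. None had a range above 1, beside 5.70% of all detected genes. The largest ranges were those of Atm, the kinase that signals double-strand breaks to p53, at 7.28, 6.48 and 6.50 in samples 1, 2 and 3, and of Rpl11, a ribosomal protein that binds MDM2, at 6.15, 5.62 and 5.83. Rpl11 has near-identical pseudogene copies, and its signal may be shared with them. Hipk2, a kinase that phosphorylates p53, was at 8.04 in samples 1 and 2 and 8.51 in sample 3, and the acetyltransferase Ep300 was at 9.46, 9.54 and 9.92. The smallest ranges were those of the deacetylase Sirt1 (0.091) and the p53-binding inhibitor Ppp1r13l (0.023). The bottom value came from sample 2 in 13 of 22 regulators, beside 29.4% of all detected genes, and the top value from sample 1 in 11, beside 28.8%. T cell markers had the same samples at the bottom and top in 5 of 5, with the median deviations given above, and their part was not tested. The p53 family members Trp63 and Trp73 were below the detection level on all 3 arrays, at 4.91 to 4.92 and 4.13 to 4.16, which bounds their signal and does not show their absence.

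Genes whose products p21 binds were all detected, 8 of 8 measured, beside 60.5% of the genes outside the receptor families. Cdk2 was at 7.64, 7.61 and 8.24 in samples 1, 2 and 3, and Ccnd2, which encodes cyclin D2, at 8.83, 8.98 and 8.35, the widest ranges of this group at 0.63 and 0.62. Ccnd1 and Cdk4 had the narrowest, 0.15 and 0.16. Among other inhibitors of these kinases 6 of 6 were detected, and Cdkn1c, which encodes p57, had the largest range, at 6.31, 7.25 and 6.93. Cdkn2a, which encodes the p53 activator ARF and the kinase inhibitor INK4A, was at 5.71, 5.57 and 5.85, close to the detection level. Sample 2 was the lowest in 5 of these 6, beside 29.4% of all detected genes, and in 5 of 5 T cell and 6 of 6 dendritic cell markers, whose part was not tested. Cell division genes were detected in 9 of 9 and were highest in sample 3 in 7, beside 32.8% of all detected genes, and lowest in sample 2 in 7. Dendritic cell markers had these samples at the top and bottom in 6 of 6. Endothelial markers were highest in sample 3 in 5 of 6 and lowest in sample 2 in 4, with 4 of 6 detected on every array. For neutrophil lineage markers these counts were 5 and 2 of 6, and for myogenic and muscle markers 3 and 5 of 6. The part of these cell types was not tested. Among the cell division genes were the kinase Plk1 at 7.42, 7.39 and 8.23 and Ccnb2, which encodes cyclin B2, at 8.47, 8.59 and 9.12.

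Relatives of the apoptosis targets in the BCL2 family were detected on every array in 11 of 13, beside 60.5% of the genes outside the receptor families. The exceptions were Hrk, below the detection level on all arrays, and Bik, above it on 2, both BH3-only genes named after their values were seen. Pmaip1, which encodes NOXA and is a direct p53 target in its own right, was at 6.89, 6.84 and 6.88 in samples 1, 2 and 3. Bak1, a pore former, was at 9.63, 9.72 and 9.98, and Bid, a BH3-only protein cut by caspases, at 6.24, 6.16 and 6.57. Bcl2l11, which encodes BIM, was at 7.65, 7.39 and 7.78, the anti-apoptotic Bcl2 at 8.18, 7.99 and 7.88, and Bcl2l2 was equal on all arrays. The median SD of this family was 0.079, against 0.165 for all detected genes. None of its members had a range above 1, beside 5.70% of all detected genes.

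Paralogs of the members did not share their orders. Sesn1, a sestrin and also a direct p53 target, was at 8.09 in samples 1 and 2 and 7.49 in sample 3, where Sesn2 was highest. Sesn3 was at 8.48, 8.50 and 8.33. Trp53inp2 was at 7.20, 7.63 and 7.27, highest in sample 2, whereas Trp53inp1 was highest in sample 1. Ccng2, the relative of Ccng1, was at 8.32, 8.01 and 8.43, highest in sample 3. Tnfrsf19, a relative of Eda2r, was at 6.46, 6.40 and 6.76. Zmat2 had a range of 0.16, and Zmat4 was below the detection level. Edar, the related receptor for the A1 form of ectodysplasin, was not detected, and the ligand gene Eda was above the detection level in sample 2 alone, at 5.30 against 4.92 and 4.84 in samples 1 and 3. Eda, Zmat4 and Edar were named after their values were seen.

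Immediate early and dissociation stress genes, which digestion of tissue can induce, were detected in 8 of 8, beside 60.5% of the genes outside the receptor families. Fos was at 10.07, 10.18 and 10.26 in samples 1, 2 and 3, Atf3 at 10.88, 11.07 and 11.15, and Hspa1a, a heat shock chaperone, at 11.19, 10.43 and 10.76. Their median deviations were -0.12, 0.08 and -0.04, and sample 1 was the lowest in 5 of 8. It was also the lowest in 4 of the 8 p53 targets, Cdkn1a, Mdm2, Sesn2 and Zmat3, beside 31.2% of all detected genes. Their part in the levels of the p53 targets was not tested.

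**Figure D4:**
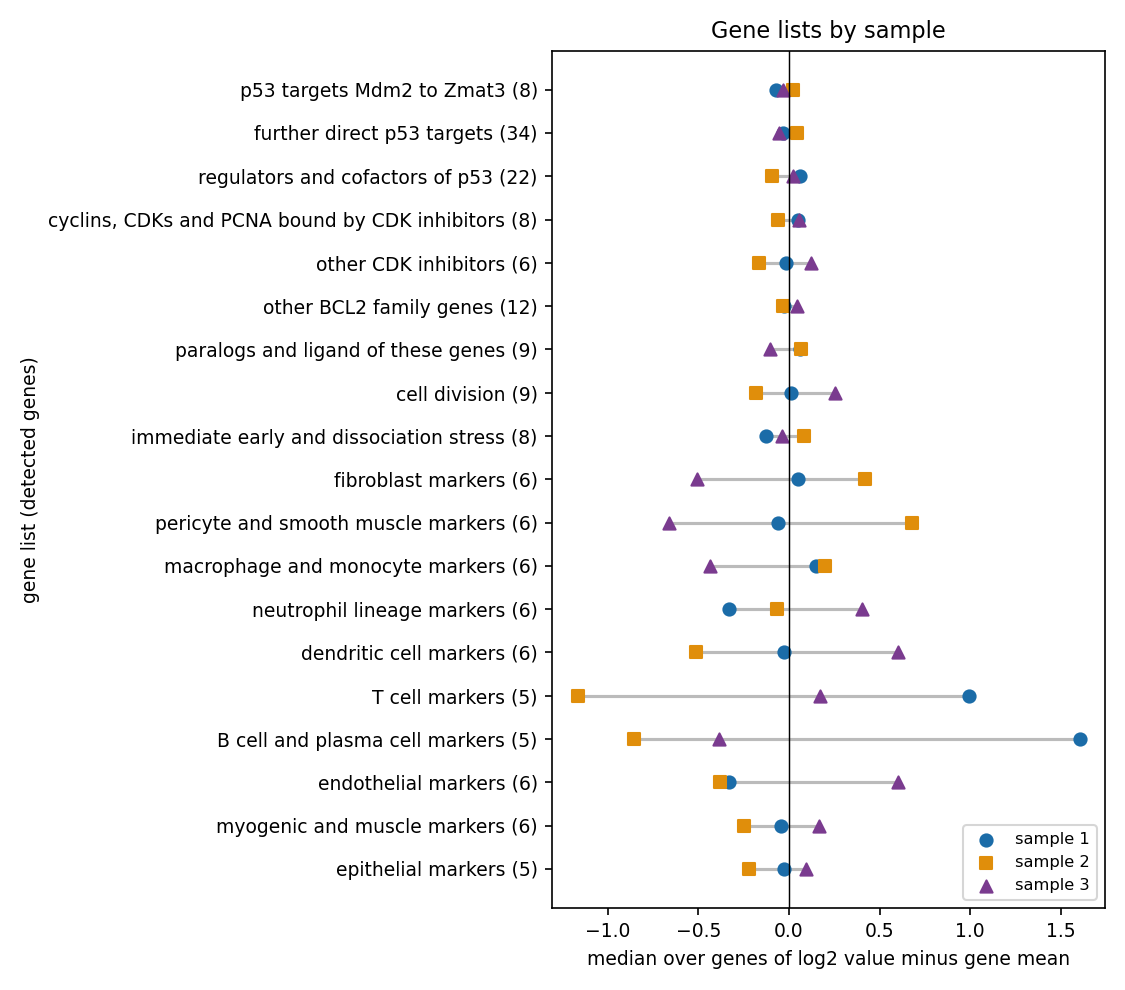
Median over the detected genes of each list (vertical axis, with the number of genes) of the log2 value minus the gene's mean (horizontal axis), for samples 1, 2 and 3. The p53 targets and regulators lie close to 0, with spans of 0.09 and 0.15, and the T cell and B cell markers spread the most, with spans of 2.16 and 2.46.

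The labelled stroma was checked against its markers. Pdgfra and Dcn, fibroblast genes, had means of 8.54 ± 0.71 and 11.62 ± 0.41, and the macrophage gene Cd68 a mean of 10.83 ± 0.05 (SD, n = 3 each). The ranges of the 6 macrophage and monocyte markers ran from 0.086 for Cd68 to 1.05. Of these markers 4 of 6 were lowest in sample 3, beside 33.3% of all detected genes. Their median deviations were 0.15, 0.20 and -0.44 in samples 1, 2 and 3, and their part in the p53 targets was not tested. Markers of other leukocytes were detected alongside these fibroblast and macrophage genes. Of the endothelial markers, which the PECAM1 gate should lower, 4 of 6 were detected on every array. So were 6 of 6 myogenic and muscle markers and 3 of 5 epithelial markers, beside 60.5% of the genes outside the receptor families. The p53 targets were measured on this mixture of cells.

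The genes whose deviations lay nearest to those of the widest members were found among genes detected on every array, by Euclidean distance over the 3 samples. For Sesn2 these were Mmp9, a matrix protease, at 9.02, 9.61 and 10.07 in samples 1, 2 and 3 (distance 0.036), Cytl1, at 11.09, 11.70 and 12.23 (distance 0.038), and Fosl2, an AP-1 subunit, at 9.26, 9.82 and 10.30 (distance 0.048). For Eda2r they were Iigp1 (distance 0.0045), Selenom (distance 0.010) and Slc7a8 (distance 0.011). Within 0.2, a radius wider than all of these distances, lay 88 of 12507 genes for Sesn2 and 394 of 12508 for Eda2r. Over only 3 samples such closeness does not show a link between genes.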

How the data were processed

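Affymetrix arrays of biotin-labelled RNA from 3 Dicer1 +/- stroma samples were used. The authors deposited log2 intensities for each probe set. Partek is named in the submitters' processing notes without a role. How arrays were normalized and background corrected is not given in the sources used here. That the scale is log2 follows from the values, 2.00 to 13.18. Of 31873 probe sets, 23094 had 1 gene symbol in GEO's platform annotation, 1764 several and 7015 none here. For a gene with several probe sets the one with the highest mean was kept. Detection, means, SDs, ranges, deviations and promoter matches were computed with Python 3.11.15, pandas 2.3.3 and numpy 2.4.6. Simulated data were used to check the receptor count, calls of a range above 1, the highest sample, the probe set kept and quantile normalization. Promoter matching was not checked in that way. In 15.5% of probe sets 2 or more arrays held the same value, which lowers an SD by construction. With 1 group, nothing was tested between groups. The number of arrays limits the precision. The members and lists were chosen with earlier results of these data known. Named genes were all members, any gene of lists of 9 or fewer (those shown were picked with their values known), of longer lists the 4 widest and 2 narrowest detected on every array, the first 2 markers of a cell type, and 3 nearest genes of the 2 widest members, with Xist, Eif2s3y and Dicer1 as checks. Alternatives left out each sample and changed scaling, probe set summary, detection level, filter and threshold.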

Additional observations from a re-analysis of the deposited data

How the results depend on the processing

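No paired analysis was possible because there was 1 group. The number of the 8 genes detected on every array was 4 with the 99th percentile as detection level (Mdm2, Cdkn1a, Ccng1 and Trp53inp1), against 7, and 7 or 8 under the other settings. The count with a range above 1 was 0 to 1 with 1 sample left out, 0 without sample 1 or sample 3, and 3 at a threshold of 0.5. Leaving out a sample can only narrow a range or keep it. The number of genes highest in sample 2 was 2. It was 4 under quantile normalization and under median centring, where the tie of Bbc3 and the near tie of Cdkn1a were broken. With another sample left out it was 4 to 5. Those last counts are over 2 samples, where more genes are highest in each by construction, so they cannot be set against the count of 2. With 1 sample left out, the median deviation was -0.11 to -0.022 in sample 1, 0.024 to 0.11 in sample 2 and -0.024 to 0.022 in sample 3. It was 0.075 in sample 2 with the mean over the genes. The median SD was 0.15 to 0.26 over all settings. Of 48 ranges and SDs of single genes recomputed without 1 sample, 7 moved by more than the gene's SD. Of 48 under scaling or probe set settings 4 did, all of Bbc3. The SD of Bbc3 was 0, so any shift counted as a move, and its range stayed at or below 0.023. With 1 probe set for each gene, the probe set setting could not change any value. Signals near the detection level, those of Bbc3 and Eda2r, limit what can be said of either.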

Other observations

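Trp53cor1, the long noncoding RNA known as lincRNA-p21, lies next to Cdkn1a and is a p53 target in mouse. It was named after its values were seen. It was at 5.45, 5.66 and 5.71 in samples 1, 2 and 3, above the detection level on all 3 arrays by a small margin, with a mean of 5.60 ± 0.14 (SD, n = 3). Its lowest value was in sample 1, as for Cdkn1a and for 31.2% of all detected genes. Wrap53, also named after its values were seen, was at 5.71, 5.71 and 5.81, equal in samples 1 and 2.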
